A study of Mus musculus with 12 samples.

Results

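The levels of 10 genes of the epicardium and of mesothelium in general were compared in the left ventricle (LV) of mouse offspring, namely Wt1, Tbx18, Tcf21, Upk3b, Upk1b, Msln, Muc16, Lrrn4, Krt19 and Aldh1a2. They were looked up by symbol among the 46983 Ensembl genes of the count files. Of the 10 genes, 9 were found and 7 passed the filter on low counts, out of 14706 genes tested. Upk1b and Lrrn4 did not pass the filter for the edgeR test, and Muc16 was not analysed here. RNA was taken from the LV of 12 offspring aged 12 weeks, in 4 groups of 3 animals. These were Wt and Hif1a+/- offspring of non-diabetic pregnancy, and Wt and Hif1a+/- offspring of diabetic pregnancy. All groups had an FVB mother. In the diabetic groups she had been made diabetic with streptozotocin, a toxin of the insulin-producing cells. The Hif1a+/- father brought the heterozygous global deletion of Hif1a, which encodes the oxygen-regulated subunit of the transcription factor HIF-1, so that every cell of the Hif1a+/- offspring and not the epicardium alone carried it. The animals of a group came from more than 1 litter, and which litter each belonged to is not given in the sources used here. Each sample is called by its animal number.

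The epicardium is the mesothelial sheet that covers the heart. In the embryo it forms under the transcription factors Wt1, Tbx18 and Tcf21, makes retinoic acid with the enzyme Aldh1a2, and sends cells into the muscle wall that become fibroblasts and vascular mural cells. In the adult heart the sheet is thin and mostly quiescent, and its cells keep surface proteins shared with the mesothelium of pleura and peritoneum, such as uroplakins, mesothelin and mucin 16. Wt1, Tbx18 and Tcf21 are not restricted to it in the adult, since Tcf21 is kept by resident cardiac fibroblasts, Tbx18 by pericytes and other mural cells, and Wt1 is also found in some coronary endothelial cells.

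The libraries were of the 3′-seq kind, which samples the tail end of each transcript, and between 16132442 and 39812939 reads were counted on genes in each sample. Levels are CPM, the count of a gene scaled to a common library size, after TMM scaling and with no correction for length. The floor of 3 counts stood at 0.077 to 0.187 CPM, for counting error only. The library of Hif1a+/- diabetic animal 72 stood apart from the others in 3599 reads of the X-inactivation transcript Xist and 8 of the Y-linked Ddx3y, where the other 11 libraries had between 5 and 176 and at least 1539. The labels give all animals as female, while the design text names male offspring. By these reads the other 11 libraries had the pattern of males and that of Hif1a+/- diabetic 72 the pattern of a female. Hif1a was at 61.5 ± 8.96 CPM (SD, n = 3) in Wt non-diabetic, 55.3 ± 6.37 CPM in Wt diabetic, 85.7 ± 6.01 CPM in Hif1a+/- non-diabetic and 72.3 ± 8.49 CPM in Hif1a+/- diabetic samples, and reads from the 3′ end do not check a deletion elsewhere in the gene. The heart muscle markers Myh6, Myh7, Tnnt2, Actc1 and Ryr2 summed to between 54200 and 64070 CPM in the 12 samples, and the lung epithelial markers Sftpc, Sftpb and Scgb1a1 to at most 0.351 CPM.

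Promoter sequence from RefSeq (GRCm38.p6) was found for 6 of the 10 genes. The 250 bases before the start that RefSeq gives are shown for Upk3b and Lrrn4, which varied together between animals, and for Aldh1a2, which was higher after diabetic pregnancy. Capitals mark the letters of 4 motifs searched on both strands, which were the core of the HIF site (ACGTG or GCGTG), the WT1 site (GCGTGGG, which contains GCGTG), the TEAD site (GGAATG) and the GATA site (TGATAA or AGATAA).
Upk3b: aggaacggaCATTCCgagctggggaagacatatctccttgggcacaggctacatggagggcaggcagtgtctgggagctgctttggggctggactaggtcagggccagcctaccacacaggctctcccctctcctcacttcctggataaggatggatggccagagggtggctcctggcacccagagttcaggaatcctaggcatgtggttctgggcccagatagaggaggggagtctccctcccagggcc
Lrrn4: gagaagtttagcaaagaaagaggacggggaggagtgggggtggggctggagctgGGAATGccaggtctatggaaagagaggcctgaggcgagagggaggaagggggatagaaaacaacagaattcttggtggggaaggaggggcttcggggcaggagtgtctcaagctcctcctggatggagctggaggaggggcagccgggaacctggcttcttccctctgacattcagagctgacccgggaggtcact
Aldh1a2: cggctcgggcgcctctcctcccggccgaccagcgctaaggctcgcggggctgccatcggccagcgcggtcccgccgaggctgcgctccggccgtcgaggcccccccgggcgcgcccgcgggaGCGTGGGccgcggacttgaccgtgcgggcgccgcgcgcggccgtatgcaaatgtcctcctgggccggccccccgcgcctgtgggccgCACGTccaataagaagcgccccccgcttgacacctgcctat
The Upk3b window lies at chr5:136038246-136038495 on the plus strand, the Lrrn4 window at chr2:132880863-132881112 on the minus strand and the Aldh1a2 window at chr9:71215539-71215788 on the plus strand. Upk3b and Lrrn4 each held 1 match to the TEAD motif, starting 241 and 196 bases before the start, a motif found in 12.6% of 32851 promoters. The Aldh1a2 window held 40 CG dinucleotides, against 2 for Upk3b and 5 for Lrrn4. It held 1 match to the WT1 motif, present in 4.3% of promoters, and 2 matches to the HIF core, present in 38.6%, of which 1 lies inside the WT1 match. Among the other promoters, that of Tcf21 held 1 HIF core and 1 GATA match (a motif in 16.6% of promoters), and those of Tbx18 and Muc16 held none of these letters. A match is a description of the sequence and not of binding.

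The surface genes of mesothelium differed between animals within a group, and no difference between groups passed the test. Upk3b (ENSMUSG00000042985, chr5:136038496-136046487) encodes uroplakin 3B, a membrane protein of mesothelium and urothelium. Its level was 1.99, 0.5 and 0 CPM in Wt non-diabetic animals 25, 42 and 89, and 3.83, 0.511 and 0.171 CPM in Wt diabetic animals 50, 7 and 80. The Hif1a+/- samples had 0.857, 0.394 and 1.11 CPM in non-diabetic animals 14, 32 and 44, and 0.745, 3.21 and 0.0442 CPM in diabetic animals 66, 72 and 77. Each group except Hif1a+/- non-diabetic thus held 1 high and 1 very low animal, and all groups overlapped. The counts behind these values ran from 0 in Wt non-diabetic 89 to 83 in Wt diabetic 50.

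Msln (ENSMUSG00000063011, chr17:25748613-25754378), which encodes the cell surface glycoprotein mesothelin, had the same highest animals. It stood at 0.809, 0.182 and 0 CPM in Wt non-diabetic animals 25, 42 and 89, and at 1.71, 0.102 and 0.229 CPM in Wt diabetic animals 50, 7 and 80. The Hif1a+/- level was 0.623, 0.338 and 0.654 CPM in non-diabetic animals 14, 32 and 44 and 0.385, 2.11 and 0.133 CPM in diabetic animals 66, 72 and 77. Wt diabetic 50 and Hif1a+/- diabetic 72 were again the highest and Wt non-diabetic 89 was again at 0.

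Lrrn4 (ENSMUSG00000043110, chr2:132868305-132880891) encodes a leucine-rich repeat membrane protein. It had 22 counts in Wt diabetic 50 and 29 in Hif1a+/- diabetic 72, and between 0 and 7 counts in the other 10 samples. Upk1b (ENSMUSG00000049436, chr16:38773184-38800328), a tetraspanin uroplakin, had 12 counts in Wt diabetic 50, 6 each in Hif1a+/- diabetic 66 and 72, and between 0 and 5 in the others. Both genes were at or under 3 counts in 8 of the 12 samples, so that their differences between most animals were not detectable at this depth. DESeq2, run without that filter, gave log2 fold changes with diabetic pregnancy, averaged over genotypes, of 1.99 (SE 1.05, unadjusted p = 0.0573) for Lrrn4 and 1.12 (SE 0.97, unadjusted p = 0.247) for Upk1b, and no adjusted p because of their low counts.

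Summed over Upk3b, Msln, Lrrn4 and Upk1b, the level was 7.11 CPM in Wt diabetic 50 and 6.87 CPM in Hif1a+/- diabetic 72, against 0 to 3.18 CPM in the other 10 samples. The group means were 1.32 ± 1.66 CPM (SD, n = 3) in Wt non-diabetic, 2.8 ± 3.73 CPM in Wt diabetic, 1.57 ± 0.626 CPM in Hif1a+/- non-diabetic and 2.81 ± 3.56 CPM in Hif1a+/- diabetic samples, with an SD above the mean in 3 of the 4 groups. In such bulk samples, fewer mesothelial cells and less RNA per cell cannot be told apart. How much of the outer surface each LV sample contained is not given in the sources used here. The sum over the 20 further mesothelial and epicardial genes named below was not highest in the same animals. This sum was 616 CPM in Wt diabetic 50, 649 CPM in Hif1a+/- diabetic 72 and 708 CPM in Wt non-diabetic 89. It lay between 635 and 847 CPM in the other samples. Of the 20 genes, 10 passed the filter on low counts, and genes with high levels weigh most in such a sum. Whether the sparse genes of that list varied with the surface genes was not tested. The atrial muscle markers Sln, Myl7, Myl4, Nppa and Bmp10 summed to 25.2 CPM in Wt diabetic 50 and 33.5 CPM in Hif1a+/- diabetic 72, and to between 46.6 and 70.8 CPM in the other 10 samples. The red cell markers Hba-a1, Hbb-bs, Hbb-bt and Alas2 summed to 7322 CPM in Wt non-diabetic 25, 1771 CPM in Wt diabetic 50 and 733 CPM in Hif1a+/- diabetic 72, and to between 185 and 719 CPM in the other 9 samples. The part of these tissues in the values of the surface genes was not tested.

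**Figure D1:**
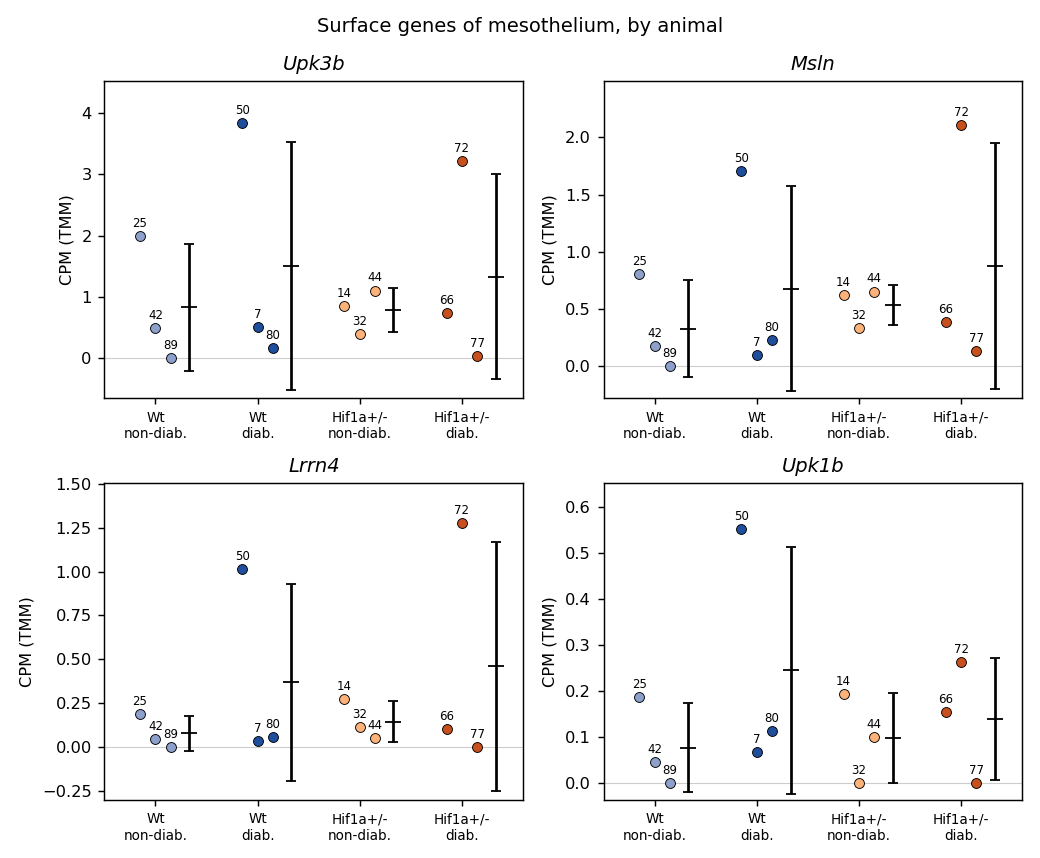
Level of Upk3b, Msln, Lrrn4 and Upk1b in each of the 12 animals (y axis, CPM after TMM scaling) by group (x axis), with the animal number above each point and the mean and SD of the 3 animals at the right of each group. Wt diabetic 50 and Hif1a+/- diabetic 72 are the highest 2 animals for Upk3b, Msln and Lrrn4, and Wt non-diabetic 89 is at 0 for all 4 genes.

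The spread of these genes between animals of a group was far above that of other genes. The biological coefficient of variation (BCV), edgeR's estimate of the relative spread between replicates beyond counting error, was 105% for Upk3b, the highest of the 14706 genes tested, and 89.7% for Msln, the 6th highest. Genes of their abundance had a BCV of 23.8% and 24.9% on the fitted trend. Krt19 had a BCV of 43.6%, at rank 133, whereas the values of Wt1, Tbx18, Tcf21 and Aldh1a2 were 19.2%, 13.5%, 11.2% and 16.2%, against 13.7% over all genes.

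No difference between groups was detectable against this spread. Averaged over the genotypes, Upk3b differed between diabetic and non-diabetic pregnancy by a log2 fold change of 0.85 (SE 0.84, edgeR quasi-likelihood test, adjusted p = 0.707), with a 95% interval from -0.8 to 2.5. For Msln the log2 fold change was 0.91 (SE 0.8, edgeR adjusted p = 0.673), with an interval from -0.66 to 2.48. Both values depended on single libraries. Without Wt non-diabetic 25 they were 1.67 and 1.75, and without Wt non-diabetic 89 they were 0.52 and 0.57. Without Wt diabetic 50 they were -0.15 and -0.14, without Hif1a+/- diabetic 72 they were 0.09 and 0.13, and without both Wt diabetic 50 and Hif1a+/- diabetic 72, a choice made after seeing the data, they were -0.92 and -0.92.

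The surface genes varied together over the 12 samples. Pearson's r of log2 CPM between Upk3b and Msln was 0.92 and Spearman's rho was 0.9 (permutation p = 8e-05 and p = 0.00024, 100000 resamples, two-sided). Among the other 14705 tested genes, Msln was the one with the highest r to Upk3b, and Upk3b the one with the highest r to Msln. The r was 0.94 after the mean of each group was subtracted, 0.85 without the 2 samples farthest from the median of Upk3b, 0.96 within the 6 non-diabetic and 0.9 within the 6 diabetic samples. Adjusted over the 14705 genes by the Benjamini-Hochberg method the permutation p was 0.588 for r. A single gene at the smallest p that 100000 resamples can give would reach 0.147. Upk3b and Msln were each at or under 3 counts in 3 of the 12 samples. From 0.0442 to 0.511 CPM of Upk3b, Msln did not rise steadily. It was 0.133, 0.229, 0.338, 0.182 and 0.102 CPM in Hif1a+/- diabetic 77, Wt diabetic 80, Hif1a+/- non-diabetic 32, Wt non-diabetic 42 and Wt diabetic 7.

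Lrrn4 and Upk1b, although sparse, varied with the same animals. Lrrn4 had an r of 0.84 with Upk3b (rho 0.8) and 0.9 with Msln (rho 0.9), with permutation p = 0.00066 and p = 3e-05. Upk1b had an r of 0.86 with Upk3b (rho 0.87) and 0.83 with Msln (rho 0.83), with permutation p = 0.0005 and p = 0.00116. The r of Lrrn4 with Upk1b was 0.83 (rho 0.84, permutation p = 0.00027). Without the 2 farthest samples these 5 values were between 0.71 and 0.87.

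**Figure D2:**
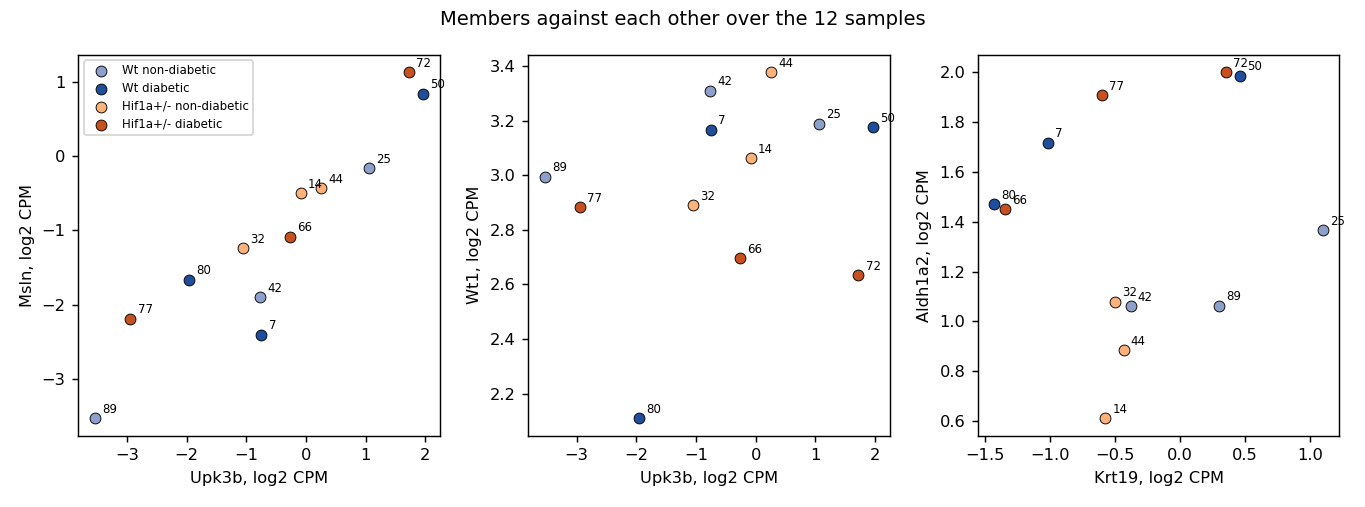
Msln against Upk3b, Wt1 against Upk3b, and Aldh1a2 against Krt19 in the 12 samples, all as log2 CPM with a prior count of 2, coloured by group and marked with the animal number. Msln is high in the animals with high Upk3b (r 0.92 over the 12 samples), but does not rise steadily among animals low in Upk3b. No correlation of Wt1 with Upk3b was detectable (r 0.25, permutation p = 0.429). The diabetic samples lie above the non-diabetic ones in Aldh1a2 at a like level of Krt19.

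No correlation of the transcription factors with Upk3b passed the test over the 12 samples. The r of Upk3b was 0.25 with Wt1 (rho 0.34), -0.03 with Tbx18 (rho -0.02) and -0.23 with Tcf21 (rho -0.44), with permutation p = 0.429, p = 0.917 and p = 0.471. The r between Upk3b and Tcf21 was -0.68 without the 2 samples farthest from the median of Tcf21 (unadjusted permutation p = 0.029). It was -0.78 without Hif1a+/- diabetic 72 alone, so that the r of -0.23 over the 12 samples depended on that single library. Within the 6 non-diabetic samples Tcf21 had an r of -0.71 with Upk3b (exact permutation p = 0.111). With Msln it was -0.86 there (exact permutation, unadjusted p = 0.025, with 36 pairs computed). Within the 6 diabetic samples these r were 0.0102 and 0.29. Over the 12 samples the r of Tcf21 with Msln was -0.11 (permutation p = 0.735). Among themselves, Wt1 had an r of -0.47 with Tbx18 (rho -0.4, permutation p = 0.123) and -0.43 with Tcf21 (rho -0.5, permutation p = 0.163), while that of Tbx18 and Tcf21 was 0.01 (rho -0.2, permutation p = 0.97). Of the 21 pairs among the 7 tested genes, 12 had a positive and 9 a negative r, with a median of 0.03, and 1 pair, Upk3b with Msln, had an unadjusted p under 0.05. Adjusted over the 14705 genes, the permutation p of r was at least 0.321 in every one of these pairs.

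**Figure D3:**
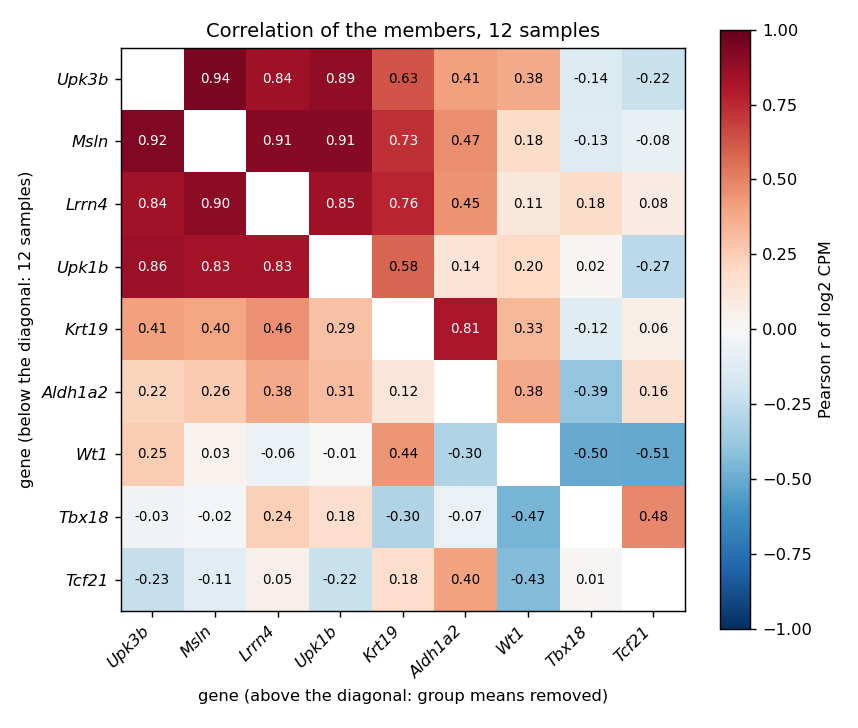
Pearson r of log2 CPM for every pair of the 9 genes found, over the 12 samples (below the diagonal) and after the mean of each group was subtracted (above the diagonal), on a colour scale from -1 to 1. The block of Upk3b, Msln, Lrrn4 and Upk1b lies between 0.83 and 0.94 on both sides of the diagonal, and the transcription factors lie outside it.

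The genes whose pattern was most like that of the 7 tested genes together, by the mean of their 7 Pearson r over the 12 samples, were Usp39, Ddx39, Grin2c, Plpbp, Cyp2s1, Ccnd3, Ddx31, Igsf3, Utp14a and Dhx38. Their mean r was between 0.36 and 0.4. None of them is on the list of further mesothelial genes named below, and none had an r over 0.8 with any of the 7.

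Krt19 (ENSMUSG00000020911, chr11:100140810-100148665) encodes a keratin of simple epithelia and mesothelium. It was at 2.06, 0.682 and 1.14 CPM in Wt non-diabetic animals 25, 42 and 89 and at 1.29, 0.409 and 0.286 CPM in Wt diabetic animals 50, 7 and 80. Among Hif1a+/- offspring it was 0.584, 0.62 and 0.654 CPM in non-diabetic animals 14, 32 and 44 and 0.308, 1.19 and 0.574 CPM in diabetic animals 66, 72 and 77. The highest animals were Wt non-diabetic 25, Wt diabetic 50 and Hif1a+/- diabetic 72, the same 3 as for the sum of the surface genes, but Wt non-diabetic 89, where those were at 0, kept 28 counts of Krt19. All 3 Hif1a+/- non-diabetic values lay below the 3 Wt non-diabetic values, with a log2 fold change of -1.02 (SE 0.58, edgeR adjusted p = 1, unadjusted p = 0.101). It was -0.58 without Wt non-diabetic 25. How many of all tested genes are separated in this way was not computed, so the separation is a description only. Averaged over genotypes the log2 fold change with diabetic pregnancy was -0.42 (SE 0.42, edgeR adjusted p = 0.709). With 1 library left out it ranged from -0.85 without Wt diabetic 50 to -0.18 without Wt non-diabetic 25, and it was -0.73 without Hif1a+/- diabetic 72.

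The r of Krt19 was 0.41 with Upk3b (rho 0.52, permutation p = 0.184) and 0.12 with Aldh1a2 (rho 0.03, permutation p = 0.713). After the group means were subtracted the r of Krt19 with Aldh1a2 was 0.81 (exact permutation test within groups, two-sided, unadjusted p = 0.0054, with 36 pairs computed). It was 0.77 within the 6 non-diabetic samples (exact permutation p = 0.0569) and 0.92 within the 6 diabetic samples (exact permutation p = 0.0222).

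Aldh1a2 (ENSMUSG00000013584, chr9:71215789-71296243), the main enzyme that makes retinoic acid in the embryonic epicardium, was the member that was higher after diabetic pregnancy. It was at 2.49, 2 and 2 CPM in Wt non-diabetic animals 25, 42 and 89, and at 3.88, 3.2 and 2.69 CPM in Wt diabetic animals 50, 7 and 80. Hif1a+/- offspring had 1.44, 2.03 and 1.76 CPM in non-diabetic animals 14, 32 and 44, and 2.65, 3.92 and 3.67 CPM in diabetic animals 66, 72 and 77. All 6 diabetic samples, from 2.65 CPM upwards, lay above all 6 non-diabetic samples, which reached 2.49 CPM. Such a separation with the diabetic samples higher was found for 37 of the 14706 tested genes (0.252%), and for 1 of the 7 members. With the diabetic samples lower it was found for 49 genes (0.333%) and no member. The counts were between 35 and 49 in the non-diabetic and between 47 and 103 in the diabetic samples.

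Averaged over genotypes the log2 fold change of Aldh1a2 was 0.78 (SE 0.16), a 1.72-fold difference, with an unadjusted p = 0.000242 and an adjusted p = 0.136 in edgeR's quasi-likelihood test. It did not pass the threshold of 0.1 there, but passed with DESeq2 (log2 fold change 0.79, SE 0.19, adjusted p = 0.0096) and with limma-voom with sample weights (adjusted p = 0.0906). Within Hif1a+/- the log2 fold change was 0.97 (SE 0.22, edgeR adjusted p = 0.206, DESeq2 adjusted p = 0.0369), and within Wt 0.6 (SE 0.22, edgeR adjusted p = 1, unadjusted p = 0.0178). The difference between these changes was 0.37 (SE 0.32, edgeR interaction term, adjusted p = 0.998), with an interval from -0.25 to 0.98. Aldh1a2 is on the study's lists of changed genes for both diabetic groups, which were drawn from these same samples, so its direction is no independent evidence.

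No difference of Aldh1a2 between genotypes was detectable. The log2 fold change of Hif1a+/- against Wt was -0.31 (SE 0.24, edgeR adjusted p = 1) after non-diabetic pregnancy. It was 0.05 (SE 0.21, edgeR adjusted p = 0.973) after diabetic pregnancy. Wt diabetic 50 and Hif1a+/- diabetic 72 held the highest 2 values of Aldh1a2 too. Without Hif1a+/- diabetic 72 the log2 fold change averaged over genotypes was 0.73 (SE 0.17, edgeR adjusted p = 0.193), and without both, a choice made after seeing the data, it was 0.66 (SE 0.17, edgeR adjusted p = 0.205). The r of Aldh1a2 with Upk3b over the 12 samples was 0.22 (rho 0.2, permutation p = 0.485). The 6 adventitial fibroblast markers, Pi16, Dpt, Mfap5, Cd248, Clec3b and Igfbp6, summed to between 441 and 700 CPM in Hif1a+/- diabetic samples and to between 251 and 329 CPM in the other 9, and all 6 had a positive log2 fold change in Hif1a+/- offspring (6 of 6 at an unadjusted p under 0.05, 0 by edgeR adjusted p, 5 by DESeq2), with a median of 0.91. The 5 macrophage markers, Adgre1, Cd68, Csf1r, C1qa and Mrc1, summed to between 203 and 321 CPM in Hif1a+/- diabetic and to between 104 and 162 CPM in Hif1a+/- non-diabetic samples, with a median log2 fold change of 0.79 (5 of 5 at an unadjusted p under 0.05, 0 by edgeR adjusted p, 2 by DESeq2). The adventitial sum was 265 to 329 CPM in Wt diabetic and 251 to 303 CPM in Wt non-diabetic samples, with a median log2 fold change of 0.14 (5 of 6 positive). The macrophage sum was 146 to 238 CPM and 134 to 195 CPM in the same groups, with a median of 0.19 (5 of 5 positive), and none of these markers had an unadjusted p under 0.05 in Wt offspring. The part of these cell types in the Aldh1a2 values was not tested.

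**Figure D4:**
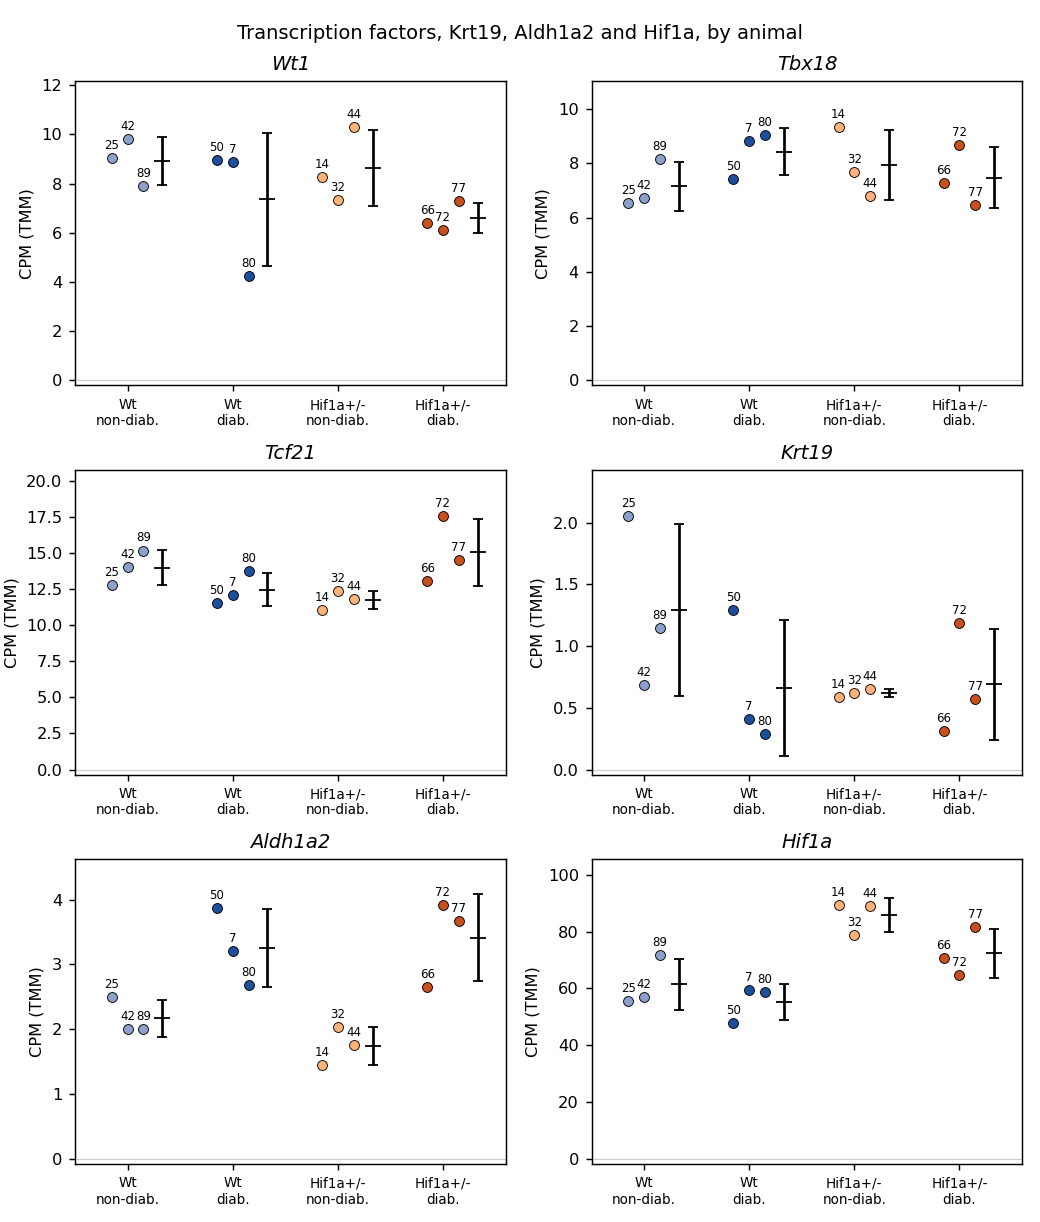
Level of Wt1, Tbx18, Tcf21, Krt19, Aldh1a2 and Hif1a in each animal (y axis, CPM after TMM scaling, from 0) by group (x axis), with the mean and SD of the 3 animals at the right of each group. Aldh1a2 is at 2.65 CPM or more in all 6 diabetic samples and at 2.49 CPM or less in all 6 non-diabetic samples, and Wt1 is lowest in Wt diabetic 80.

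Wt1 (ENSMUSG00000016458, chr2:105126529-105173616), a zinc finger factor required for the embryonic epicardium, was at 9.03, 9.82 and 7.89 CPM in Wt non-diabetic animals 25, 42 and 89, and at 8.95, 8.89 and 4.23 CPM in Wt diabetic animals 50, 7 and 80. In Hif1a+/- offspring it was at 8.26, 7.32 and 10.3 CPM in non-diabetic animals 14, 32 and 44 and at 6.4, 6.12 and 7.29 CPM in diabetic animals 66, 72 and 77. All 3 Hif1a+/- diabetic values lay under the 3 Hif1a+/- non-diabetic values, by a narrow margin, as did those of 13.2% of all tested genes. Wt diabetic 80 alone held the lowest Wt1 value of the 12. Averaged over genotypes the log2 fold change with diabetic pregnancy was -0.33 (SE 0.16, edgeR adjusted p = 0.47, unadjusted p = 0.0683). It was -0.39 (SE 0.23) in Hif1a+/- and -0.26 (SE 0.23) in Wt offspring, and the latter was 0.002 without Wt diabetic 80. The 4 blood endothelial markers, Pecam1, Cdh5, Kdr and Tie1, summed to between 763 and 802 CPM in Hif1a+/- diabetic and to between 796 and 898 CPM in Hif1a+/- non-diabetic samples, and their part in the Wt1 values was not tested. The counts of Wt1 were between 74 and 261.

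Tcf21 (ENSMUSG00000045680, chr10:22817281-22820174), a bHLH factor of epicardium-derived fibroblasts, was at 12.8, 14 and 15.2 CPM in Wt non-diabetic animals 25, 42 and 89, and at 11.5, 12.1 and 13.7 CPM in Wt diabetic animals 50, 7 and 80. In Hif1a+/- offspring it was at 11.1, 12.3 and 11.8 CPM in non-diabetic animals 14, 32 and 44, and at 13.1, 17.6 and 14.5 CPM in diabetic animals 66, 72 and 77, without overlap. In this comparison 11.2% of all tested genes were higher without overlap. The log2 fold change with diabetic pregnancy was 0.36 (SE 0.13, edgeR adjusted p = 0.342, unadjusted p = 0.0154) in Hif1a+/- and -0.17 (SE 0.13, edgeR adjusted p = 1) in Wt offspring. The difference between the genotypes in this change was 0.53 (SE 0.18), with an unadjusted p = 0.0117 and an adjusted p = 0.998 from the interaction term in edgeR. Without Hif1a+/- diabetic 72 the log2 fold change in Hif1a+/- was 0.24 (SE 0.13, edgeR adjusted p = 0.622) and the difference 0.41 (SE 0.17). All 3 Hif1a+/- non-diabetic values lay below the 3 Wt non-diabetic values, while the diabetic groups overlapped. The share of all tested genes separated in this way between the non-diabetic groups was not computed, so this separation is a description only. Hif1a+/- against Wt gave a log2 fold change of -0.26 (SE 0.13, edgeR adjusted p = 1) after non-diabetic and 0.27 (SE 0.13, edgeR adjusted p = 0.862) after diabetic pregnancy, and the latter was 0.15 without Hif1a+/- diabetic 72. The fibroblast markers Col1a1, Col1a2, Col3a1, Pdgfra, Dcn and Lum summed to between 1438 and 2079 CPM in Hif1a+/- diabetic and to between 1421 and 1576 CPM in Hif1a+/- non-diabetic samples, and their part in the Tcf21 values was not tested.

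Tbx18 (ENSMUSG00000032419, chr9:87702800-87731260), a T-box factor of the embryonic epicardium, had the narrowest range of the 9 genes, between 6.45 and 9.35 CPM in the 12 samples, a 1.45-fold range. Its group means were 7.15 ± 0.894 CPM (SD, n = 3) in Wt non-diabetic, 8.43 ± 0.87 CPM in Wt diabetic, 7.93 ± 1.3 CPM in Hif1a+/- non-diabetic and 7.46 ± 1.12 CPM in Hif1a+/- diabetic samples, and all groups overlapped. The log2 fold change with diabetic pregnancy was 0.23 (SE 0.16, edgeR adjusted p = 1) in Wt and -0.09 (SE 0.16, edgeR adjusted p = 0.84) in Hif1a+/- offspring. Averaged over genotypes it was 0.07 (SE 0.12, edgeR adjusted p = 0.831), and that of Tcf21 was 0.09 (SE 0.09, edgeR adjusted p = 0.708). The 6 smooth muscle and pericyte markers, Myh11, Acta2, Cnn1, Rgs5, Kcnj8 and Abcc9, summed to between 1228 and 1283 CPM in Hif1a+/- diabetic and to between 1420 and 1500 CPM in Hif1a+/- non-diabetic samples, and their part in the Tbx18 values was not tested. Tbx18, Tcf21 and Aldh1a2 each overlap an annotated gene on the opposite strand, which is a pseudogene for Aldh1a2, and whether strand was used in counting is not given in the sources used here.

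**Figure D5:**
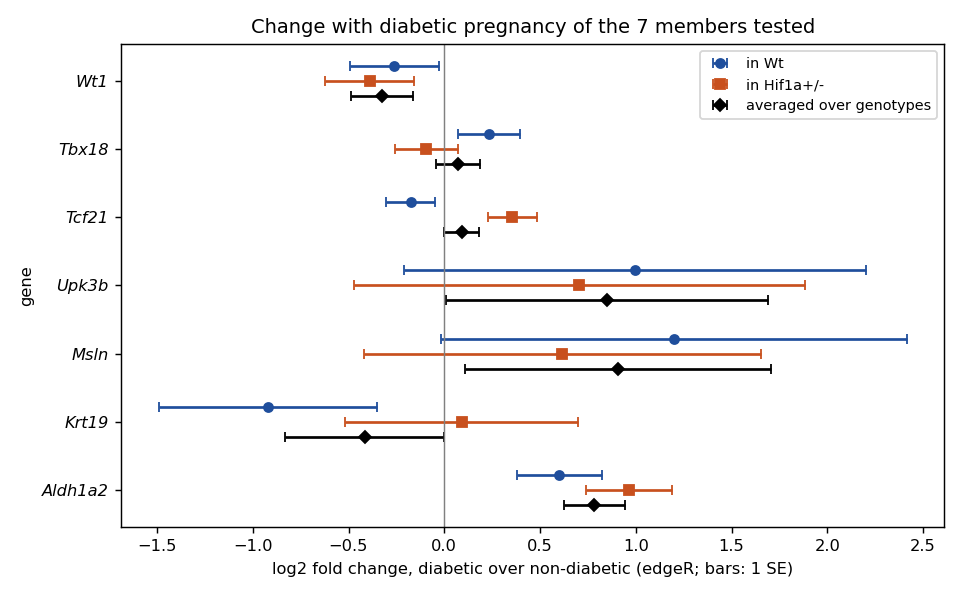
Log2 fold change of diabetic over non-diabetic pregnancy from edgeR for the 7 genes tested (y axis), in Wt (circles), in Hif1a+/- (squares) and averaged over genotypes (diamonds), with bars of 1 standard error (x axis, log2 scale). The bars are longest for Upk3b and Msln, with standard errors of 1.04 to 1.22 within a genotype, and Aldh1a2 is the gene whose 3 values lie farthest from 0 relative to their bars.

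Counted together, no member passed the adjusted p of 0.1 with edgeR in any of the 7 comparisons, where 0% of the 14706 genes did. For diabetic against non-diabetic pregnancy averaged over genotypes, an unadjusted p under 0.05 was found for 1 of the 7 members (Aldh1a2), against 11.3% of all genes, and DESeq2 called 1 member against 1.45% and limma-voom 1 against 0.265%. In Hif1a+/- offspring 2 of the 7 members (Aldh1a2 and Tcf21) had an unadjusted p under 0.05, against 12% of all genes, while DESeq2 called 1 (Aldh1a2) against 1.44% and limma-voom 1 against 6.37%. In this comparison 2 members were higher without overlap of the samples, against 11.2% of all genes, and 1 (Wt1) was lower without overlap, against 13.2%. In Wt offspring 1 member (Aldh1a2) had an unadjusted p under 0.05, against 2.78% of genes, and none was called by DESeq2 (0.0148% of genes) or limma-voom (0%).

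Between genotypes no member had an unadjusted p under 0.05. After non-diabetic pregnancy, 0 of the 7 had an unadjusted p under 0.05 between Hif1a+/- and Wt, against 0.959% of genes, and 0 were called by DESeq2 (0.00369%) or limma-voom (0%). After diabetic pregnancy the counts were also 0, against 5.35% of genes at an unadjusted p under 0.05, 0.155% called by DESeq2 and 0.0068% by limma-voom. Between Hif1a+/- diabetic and Wt non-diabetic samples 1 member (Aldh1a2) had an unadjusted p under 0.05, against 8.85% of genes, and none was called by DESeq2 (0.454%) or limma-voom (0.0136%). The interaction of genotype and pregnancy gave 1 member (Tcf21) at an unadjusted p under 0.05, against 2.52% of genes, and none by DESeq2 or limma-voom (0% of genes each). The median log2 fold change of the 7 members was 0.09 averaged over genotypes, 0.36 in Hif1a+/- and 0.23 in Wt offspring, beside -0.003, -0.006 and 0.006 over all genes tested. These comparisons share samples and are not independent of each other.

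The other genes of the same tissue and pathway did not pass the adjusted test either. Of 20 further mesothelial and epicardial genes, 10 were tested, namely Gpm6a, Sema3d, Rspo1, Krt18, Pdpn, Ezr, Slc39a8, Efemp1, Podxl and Clu. Bnc1, Dmkn, Krt7, Krt8, Calb2, Nkain4, Sbspon, Cdh3, Slpi and Lgals7 did not pass the filter on low counts. In Hif1a+/- offspring 0 genes of the list passed with edgeR or DESeq2. At an unadjusted p under 0.05, 1 was higher and 1 lower, with a median log2 fold change of 0.15. Pdpn, podoplanin of mesothelium and lymphatic vessels, had a log2 fold change of 0.59 (SE 0.17, edgeR adjusted p = 0.275). The 6 lymphatic endothelial markers, Lyve1, Prox1, Flt4, Ccl21a, Mmrn1 and Pdpn itself, summed to between 151 and 155 CPM in Hif1a+/- diabetic and to between 141 and 149 CPM in Hif1a+/- non-diabetic samples, with a median log2 fold change of 0.29 (2 of 6 at an unadjusted p under 0.05, 1 by DESeq2), and their part in the Pdpn value was not tested. Ezr, the membrane linker ezrin, had a log2 fold change of -0.24 (SE 0.09, edgeR adjusted p = 0.368). Clu, the secreted chaperone clusterin, and Sema3d, a semaphorin of the embryonic epicardium, had log2 fold changes of 0.27 (SE 0.16) and 0.38 (SE 0.26). In Wt offspring none of the 10 had an unadjusted p under 0.05 and the median was 0.04.

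Of 16 retinoic acid pathway genes other than Aldh1a2, 13 were tested. The list was written with earlier results of these data known, so its counts are no independent evidence. Aldh1a1 is also on the study's list of changed genes for Wt diabetic offspring, which was drawn from these same samples. In Wt offspring 12 of the 13 had a positive log2 fold change with diabetic pregnancy, with a median of 0.18, and 5 had an unadjusted p under 0.05, against 2.78% of all genes. These 5, named after their values were seen, were the retinoic acid receptor Rarb (0.27, SE 0.1), the enzyme Aldh1a1 (0.42, SE 0.17), the retinol transporter Stra6 (1.3, SE 0.54), the retinoic acid hydroxylase Cyp26b1 (1.41, SE 0.62) and, with a negative sign, the retinol dehydrogenase Rdh10 (-0.29, SE 0.13), all with edgeR adjusted p = 1. Among Hif1a+/- offspring 8 of the 13 were positive, with a median of 0.14, and none had an unadjusted p under 0.05, against 12% of all genes. Averaged over genotypes 11 of the 13 were positive, with a median of 0.11, and 3 had an unadjusted p under 0.05, against 11.3%. The 16 genes summed to between 498 and 503 CPM in Hif1a+/- diabetic and to between 456 and 470 CPM in Hif1a+/- non-diabetic samples, without overlap. Of all tested genes taken singly, 11.2% were higher without overlap in this comparison, and the share for sums was not computed. In Wt diabetic samples the sum was between 473 and 525 CPM and in Wt non-diabetic samples between 441 and 475 CPM, which overlapped. Neither edgeR nor DESeq2 called any of them in either genotype. The smallest p in Hif1a+/- offspring belonged to Dhrs3, a retinaldehyde reductase induced by retinoic acid, with a log2 fold change of 0.33 (SE 0.15, edgeR adjusted p = 0.422), followed by the receptor Rara with 0.35 (SE 0.17), Stra6 with 0.84 (SE 0.47) and the receptor Rxrb with 0.15 (SE 0.09).

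Of 11 genes of epithelial to mesenchymal transition and of epicardium-derived cells, 10 were tested and none was called by edgeR or DESeq2. Of these, 1 had in Hif1a+/- offspring an unadjusted p under 0.05, Cdh2, the N-cadherin of heart muscle and mesothelium, with a log2 fold change of -0.37 (SE 0.12, edgeR adjusted p = 0.298). The TGF-beta co-receptor Tgfbr3 had 0.22 (SE 0.12), and the repressors of epithelial genes Snai2 and Zeb1 had -0.33 (SE 0.19) and -0.17 (SE 0.11). The median of the list was 0.1 in Hif1a+/- and 0.05 in Wt offspring.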

How the data were processed

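RNA of 12 LV samples was analysed. The authors trimmed reads with Trimmomatic, filtered out those of ribosomal RNA and mitochondria, mapped with STAR (2.5.2b) to GRCm38 and GENCODE M8, and counted them with htseq-count in union mode. The deposited counts are whole reads per gene without normalization, and 5 tally lines (20.2% to 24.2% of reads in a sample) were left out. The deposited normalized files were not used. Symbols and coordinates came from GENCODE M21 (GRCm38), for 46488 of 46983 genes.

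edgeR's quasi-likelihood test (edgeR 4.0.16, R 4.3.3) with TMM, filterByExpr by group, and 12 samples in 1 fit (8 residual degrees of freedom) gave 7 comparisons with Benjamini-Hochberg adjustment and the study's threshold of 0.1. P-values of fold changes measure the spread between animals within groups of 3, pooled over the groups of the fit. Those of correlations come from reordering the samples. Alternatives were DESeq2 1.42.0, its size factors, limma-voom (limma 3.58.1) with sample weights, no filter, a threshold of 0.05, the compared groups only, and each library left out. Standard errors were derived from the F statistic and 95% intervals assume a normal error. Correlations used log2 CPM with a prior count of 2 (alternative 0.5) and 100000 resamples (Python 3.11.15, scipy 1.17.1). Scripts were tested on simulated data. Samples of a group differed by more than counting noise (chi-square per gene 5.22 to 43.6 in 12 pairs). Floors cover counting error only, and intervals of fold changes include the spread between animals.

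The members and lists were chosen with earlier results of these data known. Genes named by rule were the members, Hif1a, the 10 other genes with the highest mean r, and up to 4 genes per pathway list by p in Hif1a+/- offspring. Outside this rule, retinoic acid pathway genes at an unadjusted p under 0.05 in Wt offspring and 4 genes with a high r to Wt1 were named after their values were seen. Genes of the marker sums and of the further mesothelial list were named whatever their values. A gene that correlated with Wt1 is not reported here.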

Additional observations from a re-analysis of the deposited data

How the results depend on the processing

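edgeR called 0 genes in each comparison, also with DESeq2 size factors and at a threshold of 0.05, with 141 to 1764 genes at an unadjusted p under 0.05. DESeq2 called 4 genes for diabetic pregnancy in Wt, 201 in Hif1a+/- and 203 averaged over genotypes, 1 and 24 for genotype after non-diabetic and diabetic pregnancy, and 68 between Hif1a+/- diabetic and Wt non-diabetic samples. In the same order limma-voom called 0, 937, 39, 0, 1 and 2, and edgeR without a filter on low counts 129, 592, 593, 33, 220 and 445, with 78 for the interaction. With only the groups compared, 101 genes were called in Hif1a+/-. Without both Wt diabetic 50 and Hif1a+/- diabetic 72, 47 were called in Hif1a+/- and 34 averaged over genotypes. The cause of these differences was not tested. With 1 library left out, the counts ranged from 0 to 38 in Hif1a+/- (1, 9, 12 and 38 without Hif1a+/- diabetic 66, Wt diabetic 7, Wt diabetic 80 and Hif1a+/- diabetic 72), 0 to 21 averaged (21 without Wt diabetic 50), 0 to 2 and 0 to 1 for Hif1a+/- diabetic against Wt diabetic and Wt non-diabetic, 0 to 1 for the interaction, and 0 in the other 2 (the counts above 0 came without Wt diabetic 7, Hif1a+/- diabetic 66 or 72).

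The change of Aldh1a2 averaged over genotypes was 0.79 with DESeq2, 0.785 with limma-voom (adjusted p = 0.0906) and 0.791 with edgeR without a filter (adjusted p = 0.00309), all past the threshold, and 0.72 to 0.86 (edgeR adjusted p from 0.13 to 0.496) with 1 library left out. Signs turned for Upk3b (-0.153) and Msln (-0.136) without Wt diabetic 50, with ranges of -0.153 to 1.67 and -0.136 to 1.75 over the libraries left out, and without both libraries (-0.918 and -0.916). They also turned for Wt1 in Wt (-0.417 to 0.002), Tbx18 in Hif1a+/- (-0.2 to 0.046, without Hif1a+/- non-diabetic 14), and Aldh1a2 between the diabetic groups (-0.061 to 0.217, without Wt diabetic 80 or Hif1a+/- diabetic 72 or 77, and -0.018 with limma-voom). The r of Krt19 with Aldh1a2 ranged from -0.0236 to 0.195 (below 0 without Wt diabetic 50 or Hif1a+/- diabetic 72), and that of Tcf21 with Upk3b was 0.0102 in the diabetic samples, and -0.68 and -0.78 without the 2 farthest samples and without Hif1a+/- diabetic 72. The r of Upk3b with Msln was 0.89 to 0.96 with 1 library left out. No paired analysis was possible because the animal numbers are not shared between groups and the replicate number in the labels is that of the group.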

Other observations

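Wt1 differed from the other members in how many genes varied with it, a pattern seen after the data were examined. Over the 12 samples 197 of the 14705 other tested genes (1.34%) had a Pearson r over 0.8 with Wt1, against 5 to 25 genes with Tbx18, Tcf21, Upk3b, Msln, Krt19 or Aldh1a2. The highest r belonged to Dusp5, a phosphatase of ERK kinases, with 0.95 (rho 0.92, permutation p = 1e-05, the smallest that 100000 resamples can give, adjusted p = 0.0409). Other genes with a high r were Ccdc3 with 0.95 (rho 0.85), Chst1 with 0.92 (rho 0.9) and Mfsd14a with 0.92 (rho 0.87), each with an adjusted permutation p = 0.0409. None of these 4 genes is on the mesothelial lists. Their r was between 0.81 and 0.93 without the 2 samples farthest from the median of Wt1 (Wt diabetic 80 and Hif1a+/- diabetic 72), and between 0.89 and 0.97 after the group means were subtracted. With 1 library left out, the number of genes with an r over 0.8 to Wt1 was between 172 and 365 (341 and 365 without Hif1a+/- non-diabetic 32 and Wt non-diabetic 89, and 315 without Hif1a+/- diabetic 77). For the other members it was at most 93, with the exception of Upk3b, where it was 175 without Hif1a+/- diabetic 72. Counted by an unadjusted permutation p under 0.05, for r of either sign, Tcf21 was also high. The share was 24.6% of genes for Wt1, 15.8% for Tcf21 and 2% to 6.88% for the rest of the members tested. How many genes vary in this way with a gene outside the members was not computed. The points share library and depth, and a correlation over 12 samples says nothing of shared control.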
